A study of Homo sapiens with 6 samples.

Results

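The genes examined here encode the proteins that license origins of DNA replication and build the replication fork. They were chosen by symbol as a set of 51 genes, and all 51 were among the 17471 genes listed for AN3CA, an established human endometrial cancer line that expresses *PAX2*. RNA-seq values were available for 3 libraries of cells given the empty hairpin vector (shEV) and 3 libraries of cells given a hairpin against *PAX2* (shPAX2), a developmental transcription factor gene. The control follows the labels and the vector methods, while other passages of the study call the AN3CA control a scrambled hairpin. Per the study's methods, both populations were infected with lentivirus and selected with puromycin, and 1 hairpin was used. The study asked what loss of *PAX2* does to endometrial cancer cells and also measured their proliferation and cell cycle phases. Nothing in the labels states that the 3 libraries of a group came from separate cultures, so each p-value measures the spread between these libraries, which may be technical.

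Values were TPM, in which the reads of a gene are divided by its length and expressed as a share of their sum in the library. The recovered depth ran from 10730909 to 18221859 reads in the shEV libraries and from 19422615 to 29405787 reads in the shPAX2 libraries, so all of the latter were the deeper. The targeted gene measured 4.03, 3.66 and 2.74 TPM across the shEV replicates and 0.916, 0.723 and 1.17 TPM across the shPAX2 replicates, each in the order 1 to 3 used throughout. *PAX2* in shPAX2 was thus 26.9% of its shEV mean, with a log2 fold change of -1.47 (SE 0.18) and a limma adjusted p of 0.000294. By an exact permutation test, two-sided, p was 0.1, below which a design of 3 against 3 cannot go. Of 5 epithelial markers, *EPCAM*, *KRT8*, *KRT19* and *CDH1* had at most 6 reads in any library, and *KRT18* ran from 10.2 to 17.5 TPM. The markers of other cell types analysed here were low, with at most 1 read for *PTPRC* and 3 for *VWF*, and 37 to 80 reads for *COL1A1*.

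Before S phase, the origin recognition complex (ORC) marks origins and, with CDC6 and CDT1, loads the ring-shaped MCM2-7 helicase as an inactive double hexamer. Geminin, the product of *GMNN*, binds CDT1 after S phase has begun and so prevents a second round of loading. The DBF4-dependent kinase CDC7 then helps to recruit CDC45 and the GINS complex, which turn the loaded ring into the active helicase. At the moving fork, primase and polymerase alpha begin each new strand, replication factor C (RFC) places the PCNA clamp, and replication protein A (RPA) covers single-stranded DNA. Many of these genes are transcribed late in G1 under E2F transcription factors, so their RNA is often read as a sign of cycling cells. In bulk RNA, more cells in the phase that makes a transcript and more of the transcript per cell cannot be told apart.

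Promoter sequences are shown first because E2F letters were far more frequent among the members than among all promoters. The windows ran from 250 bases before to 50 bases after each annotated start in RefSeq (GRCh38.p14), and 44 of the 51 genes had at least 1 of them, in 57 windows. *MCM4*, *MCM5*, *GINS4*, *POLD3*, *RPA2*, *RPA3* and *DNA2* had none. The E2F letters searched, on both strands, were TTTCGCGC, TTTGGCGC and TTTCCCGC. At least 1 of them was present in 22 of the 57 windows (38.6%), against 2.74% of all 35116 windows and 4.19% of the 13217 windows of tested genes. The CCAAT box was found in 59.6% of the members' windows, 34.6% of all windows and 35.1% of the windows of tested genes. The CHR letters TTTGAA were in 3 of the members' 57 windows (5.26%), 15.2% of all windows and 10.3% of those of tested genes. Matches on the same or opposite strands can overlap, as they do in *MCM6* and *TIPIN*, and each overlapping run is then in capitals as 1 stretch. Such a match describes the letters and is not a binding site. The lines below give the bases just before the start on the coding strand, with the E2F letters, of either strand, in capitals. They cover chr2:135876444-135876603 (*MCM6*), chr20:5126623-5126722 (*PCNA*), chr16:85688955-85689054 (*GINS2*) and chr15:66356686-66356785 (*TIPIN*), all on the minus strand, and chr6:24775313-24775412 (*GMNN*) and chr6:57317530-57317629 (*PRIM2*) on the plus strand. *MCM6* was chosen for its pair of stretches, *PCNA*, *GINS2*, *TIPIN* and *GMNN* as genes of different fork steps that were higher in shPAX2, and *PRIM2* as a gene that was higher with no match in its windows.
MCM6: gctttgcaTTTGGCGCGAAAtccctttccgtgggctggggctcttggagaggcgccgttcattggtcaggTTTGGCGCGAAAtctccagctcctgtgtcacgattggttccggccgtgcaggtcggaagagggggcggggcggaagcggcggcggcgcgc
PCNA: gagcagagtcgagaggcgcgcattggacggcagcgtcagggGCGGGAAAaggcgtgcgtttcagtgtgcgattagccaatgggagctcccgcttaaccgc
GINS2: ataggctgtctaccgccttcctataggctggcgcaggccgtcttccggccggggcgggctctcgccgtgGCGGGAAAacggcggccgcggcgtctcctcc
TIPIN: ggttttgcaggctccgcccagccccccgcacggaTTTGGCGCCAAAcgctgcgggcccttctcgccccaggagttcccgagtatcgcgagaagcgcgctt
GMNN: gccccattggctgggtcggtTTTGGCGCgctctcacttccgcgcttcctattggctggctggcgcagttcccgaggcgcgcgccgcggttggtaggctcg
PRIM2: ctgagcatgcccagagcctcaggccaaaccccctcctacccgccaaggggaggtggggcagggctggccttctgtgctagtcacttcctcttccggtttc

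Expression of this gene group was compared between shPAX2 and shEV. Of the 51 genes, all of which passed the filter on low values, 22 were higher in shPAX2 and 2 were lower at a limma adjusted p under 0.05, while 27 did not pass. Across all 13163 genes tested, 12.2% were higher and 30.5% were lower by the same criterion. The member differences were small, running from -0.24 to 0.93 on the log2(TPM + 0.5) scale, and none reached an absolute log2 fold change of 1, which 4.54% of all genes passed. The median log2 fold change of the 51 was 0.15, against -0.10 for all genes, and 40 of the 51 were above 0. The groups did not overlap in 24 members with shPAX2 higher and 4 with shPAX2 lower, where 15.9% and 39% of all genes separated in those directions. Without shPAX2 replicate 2, 14 members were higher and 1 lower, beside 975 higher (7.49%) and 2867 lower of all 13014 genes tested. The 14 that remained higher in that fit and in every other setting tried were *MCM2*, *MCM3*, *MCM6*, *ORC3*, *GMNN*, *CDC45*, *GINS2*, *CDC7*, *PCNA*, *PRIM2*, *RRM2*, *TK1*, *UNG* and *TIPIN*.

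Because TPM values of a library add up to a fixed sum, the scaling was varied. Median-of-ratios scaling, which lines the libraries up on the typical gene, moved the median of all genes from -0.10 to -0.0002 and that of the members to 0.26. On that scale 35 members were higher and 0 lower, beside 21.2% higher and 19.9% lower among all genes, and *GMNN* passed the fold threshold at 1.03. All 22 genes that were higher on the TPM scale were among the 35. The pair of lower genes, *GINS4* and *POLD3*, passed neither on that scale nor after quantile normalization.

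**Figure D1:**
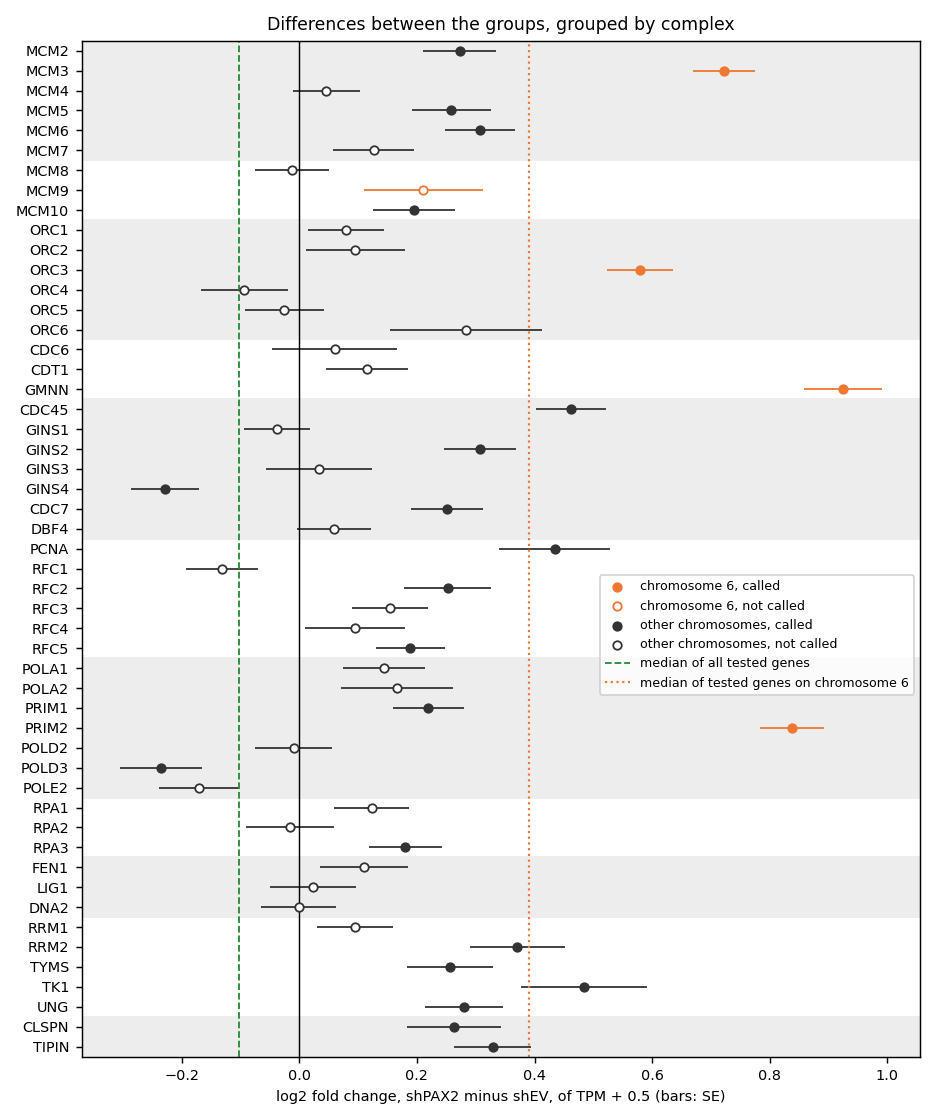
Log2 fold change of each of the 51 genes, shPAX2 minus shEV, with its SE (horizontal axis, log2(TPM + 0.5)), 3 libraries a group, with genes ordered by complex in alternating bands. Filled points passed an adjusted p of 0.05, orange marks genes on chromosome 6, and the dashed and dotted lines are the medians of all tested genes (-0.10) and of tested genes on chromosome 6 (0.39). Most points lie to the right of the dashed line, and the 4 farthest right are orange.

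The MCM2-7 helicase was examined subunit by subunit. Of its 6 genes, *MCM2*, *MCM3*, *MCM5* and *MCM6* were higher in shPAX2 and *MCM4* and *MCM7* did not pass. *MCM3* measured 152, 146 and 143 TPM in shEV and 243, 241 and 243 TPM in shPAX2. The groups lay far apart and the shPAX2 libraries were within 1.01-fold of each other. Its log2 fold change was 0.72 (SE 0.05, adjusted p 1.85e-05), the largest of the helicase on the TPM scale, on which its chromosome as a whole was also higher, as described for chromosome 6 below. *MCM2* measured 157, 152 and 145 TPM in shEV and 173, 192 and 183 TPM in shPAX2. Every shPAX2 library was above every shEV library, with a log2 fold change of 0.27 (SE 0.06, adjusted p 0.00749). *MCM6* (0.31, adjusted p 0.00327) and *MCM5* (0.26, adjusted p 0.0141) were close to it in size. *MCM7*, the most abundant gene of the whole group, averaged 388 ± 30.0 TPM in shEV against 423 ± 13.3 in shPAX2 (SD, n = 3 each), with a difference of 0.13 and an adjusted p of 0.168. The microRNA genes *MIR25*, *MIR93* and *MIR106B* are listed inside it on the same strand. *MCM4* had the smallest difference of the 6, 0.05 (SE 0.06, adjusted p 0.555), and its groups overlapped. Under median-of-ratios scaling all 6 subunits were higher, *MCM4* with an adjusted p of 0.0495.

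Among the other MCM-named proteins, *MCM10*, which is needed to activate the loaded helicase, was the 1 called gene. It stood at 71.8, 68.6 and 68.2 TPM in shEV and 72.4, 82.5 and 84.6 TPM in shPAX2. The lowest shPAX2 library, replicate 1, was only just above the highest shEV library. The log2 fold change was 0.19 (SE 0.07) and the adjusted p of 0.0493 lay at the threshold, which it missed in several other settings. *MCM8* and *MCM9*, which form a separate helicase that acts in recombination, did not pass, at -0.01 (adjusted p 0.887) and 0.21 (adjusted p 0.122).

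**Figure D2:**
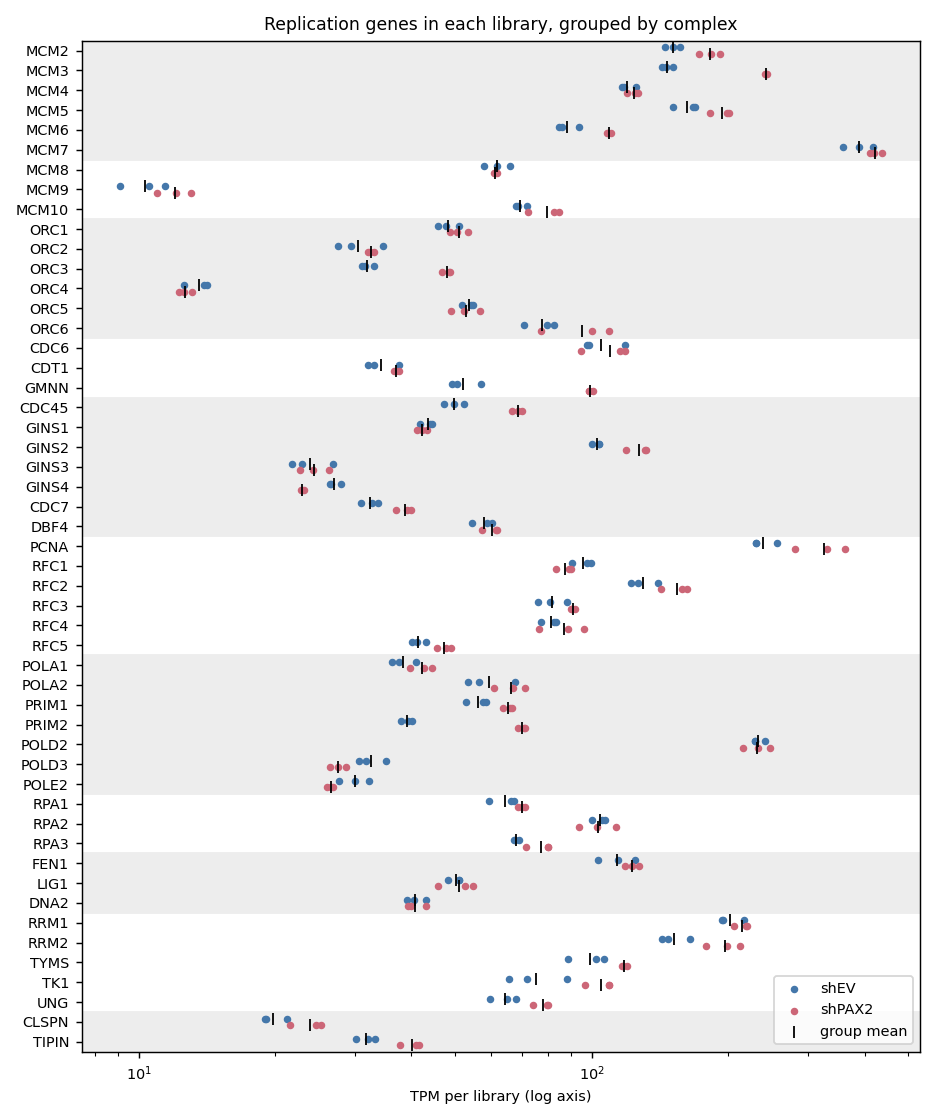
TPM of each of the 51 genes in each of the 6 libraries (log axis), ordered by complex in alternating bands, with shEV libraries in blue, shPAX2 libraries in red and the group means as ticks. *MCM3*, *ORC3*, *GMNN* and *PRIM2* show the widest gaps between the colours, while the points of most other genes lie close together or overlap.

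In the origin recognition complex 1 of the 6 genes was called. *ORC3* measured 31.7, 31.1 and 33.1 TPM in shEV and 48.4, 46.8 and 48.6 TPM in shPAX2. The groups did not overlap, and the log2 fold change was 0.58 (SE 0.06, adjusted p 7.95e-05). *ORC1*, *ORC2*, *ORC4* and *ORC5* ranged from -0.09 to 0.10, with adjusted p from 0.335 to 0.78. *ORC6*, the subunit with the most RNA per length, stood at 82.5, 70.8 and 79.5 TPM in shEV and at 77.1, 99.95 and 109 TPM in shPAX2. Replicate 1 of shPAX2 fell inside the shEV range while the other two were above it. Its log2 fold change of 0.28 had an SE of 0.13 and an adjusted p of 0.116.

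Of the loading factors and their inhibitor, only the inhibitor gene was called. *GMNN* stood at 56.8, 50.5 and 49.0 TPM in shEV and at 98.5, 98.6 and 101 TPM in shPAX2. Its shPAX2 libraries were nearly equal, all were above every shEV library, and the difference was the largest of the 51 genes on the TPM scale at 0.93 (SE 0.07, adjusted p 1.73e-05). *CDT1*, the loader that geminin binds, measured 32.0, 37.5 and 33.1 TPM in shEV and 36.9, 37.6 and 36.5 TPM in shPAX2. Replicate 2 of shEV lay among the shPAX2 libraries, and the difference of 0.12 (SE 0.07) had an adjusted p of 0.213. *CDC6*, an ATPase that joins ORC at origins, gave 119, 97.5 and 98.8 TPM in shEV and 94.7, 115 and 118 TPM in shPAX2. The ranges of the groups covered each other almost entirely, with a log2 fold change of 0.06 (SE 0.11, adjusted p 0.679).

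Genes that turn the loaded ring into an active helicase were examined next, and 3 of 7 were higher and 1 was lower. *CDC45* stood at 49.5, 52.3 and 47.3 TPM in shEV and 68.8, 70.3 and 66.7 TPM in shPAX2. No shEV library reached the shPAX2 range, and the log2 fold change was 0.46 (SE 0.06, adjusted p 0.000407). The 4 GINS subunits, which work as a single tetramer, were called in 2 cases, in opposite directions. *GINS2* averaged 103 ± 2.31 TPM in shEV against 127 ± 7.19 in shPAX2 (SD, n = 3 each), with a log2 fold change of 0.31 (adjusted p 0.00378). *GINS4* averaged 27.0 ± 0.880 and 22.9 ± 0.181 TPM, a log2 fold change of -0.23 (adjusted p 0.012), which median-of-ratios scaling changed to -0.12 (adjusted p 0.0958). *GINS1* and *GINS3* were at -0.04 and 0.03 and did not pass. The kinase gene *CDC7* was higher by 0.25 (adjusted p 0.0104), and its regulatory subunit *DBF4* was at 0.06 (adjusted p 0.484).

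At the clamp, *PCNA* measured 257, 231 and 230 TPM in shEV and 363, 331 and 281 TPM in shPAX2. Even the lowest shPAX2 library, replicate 3, was above the highest shEV library, and the log2 fold change was 0.43 (SE 0.09, adjusted p 0.00623). The annotation holds 3 *PCNA* pseudogenes and a small nucleolar RNA gene, *SNORA26*, listed on the same strand, so some of these reads are uncertain. The same limit holds elsewhere, since 14 of the 51 members had an annotated pseudogene and 7 a listed same-strand overlap. *RFC5*, *RPA3*, *RRM2*, *TYMS*, *UNG* and *TIPIN*, all called higher, were among those with a pseudogene. Of the 5 subunits of the clamp loader, *RFC2* and *RFC5* were higher, at 0.25 (adjusted p 0.023) and 0.19 (adjusted p 0.0283). *RFC3* (0.15, adjusted p 0.086) and *RFC4* (0.09, adjusted p 0.395) did not pass. The large subunit *RFC1* stood at -0.13 (adjusted p 0.116), with every shPAX2 library below every shEV library, as in 39% of all genes. Centring on chromosomes, described below, put it at 0.15 (adjusted p 0.0589).

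Of the 7 polymerase and primase genes, both primase subunits were higher. *PRIM2*, the large primase subunit, stood at 39.3, 37.9 and 40.1 TPM in shEV and at 71.1, 70.9 and 68.8 TPM in shPAX2. The groups were well apart, and the log2 fold change of 0.84 (SE 0.05) had the lowest adjusted p of all 51 genes, 9.16e-06. An annotated pseudogene, *PRIM2BP*, could share some of these reads. *PRIM1*, the catalytic subunit, differed by 0.22 (SE 0.06, adjusted p 0.0169), and the gene *NACA* is listed over it on the same strand. The polymerase alpha genes *POLA1* (0.14, adjusted p 0.126) and *POLA2* (0.17, adjusted p 0.192) did not pass. *POLA2* measured 67.8, 56.5 and 53.4 TPM in shEV and 60.9, 66.9 and 71.1 TPM in shPAX2. Replicate 1 was the highest library of shEV and the lowest of shPAX2, so the groups overlapped. Among accessory subunits of the delta and epsilon polymerases, *POLD3* was lower at -0.24 (SE 0.07, adjusted p 0.0241), from 32.5 ± 2.38 to 27.5 ± 1.11 TPM (SD, n = 3 each). Median-of-ratios scaling changed this to -0.13 (adjusted p 0.169). *POLE2* was at -0.17 (adjusted p 0.0713) and *POLD2* at -0.01 (adjusted p 0.916).

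In the RPA trimer, *RPA3* stood at 69.2, 67.8 and 67.2 TPM in shEV and at 80.0, 80.1 and 71.8 TPM in shPAX2. Replicate 3 of shPAX2 came close to the shEV libraries without overlapping them, and the log2 fold change was 0.18 (SE 0.06, adjusted p 0.0419), a call that several other settings did not give. *RPA1* (0.12, adjusted p 0.154) and *RPA2* (-0.02, adjusted p 0.882) did not pass. None of the 3 genes that process the lagging strand was called. *FEN1*, the flap endonuclease, had the lowest adjusted p of them, 0.27, with 124, 114 and 103 TPM in shEV and 118, 127 and 122 TPM in shPAX2. Replicate 1 of shEV lay inside the shPAX2 range, and the log2 fold change was 0.11 (SE 0.07). The ligase gene *LIG1* was at 0.02 and the nuclease-helicase gene *DNA2* at -0.0014, the member nearest to 0.

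Genes that supply nucleotides or remove uracil were higher in 4 of 5 cases. *RRM2*, the regulatory subunit of ribonucleotide reductase, whose RNA and protein are made in S phase, measured 165, 147 and 143 TPM in shEV and 178, 199 and 212 TPM in shPAX2. The groups did not overlap, and the log2 fold change was 0.37 (SE 0.08, adjusted p 0.00636). Its partner *RRM1* was at 0.09 (SE 0.06, adjusted p 0.271), with overlapping groups. The thymidine kinase gene *TK1* stood at 88.3, 71.9 and 65.7 TPM in shEV and at 96.6, 109 and 109 TPM in shPAX2. Replicate 1 was the highest library of shEV and the lowest of shPAX2, yet the groups stayed apart, with a log2 fold change of 0.48 (SE 0.11, adjusted p 0.00778). The thymidylate synthase gene *TYMS* was higher by 0.26 (adjusted p 0.0209), and *UNG*, which encodes the uracil-DNA glycosylase, by 0.28 (adjusted p 0.00943).

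Both fork protection genes were higher. *TIPIN*, whose product travels with the fork and helps to hold it steady when it stalls, stood at 32.0, 30.1 and 33.2 TPM in shEV and at 37.7, 41.6 and 40.9 TPM in shPAX2. All shPAX2 libraries were above all shEV libraries, with a log2 fold change of 0.33 (SE 0.07, adjusted p 0.00386). *CLSPN*, which encodes the checkpoint mediator claspin, differed by 0.26 (SE 0.08, adjusted p 0.0274).

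The 4 largest member differences on the TPM scale, those of *GMNN*, *PRIM2*, *MCM3* and *ORC3*, all belonged to genes on chromosome 6, where 5 of the 51 genes lie. On GRCh37 their positions are 24775159 to 24786327 for *GMNN*, 52128812 to 52149679 for *MCM3*, 57179603 to 57513376 for *PRIM2*, 88299785 to 88377171 for *ORC3* and 119134605 to 119256327 for *MCM9*, so they are spread over both arms. The chromosome as a whole was higher in shPAX2, with 62.4% of its 630 tested genes called higher against 9.82% of the 11998 on other chromosomes, and with a median log2 fold change of 0.39 against -0.11. Ranked among those 630 genes by log2 fold change, *GMNN* was number 33, *PRIM2* 52, *MCM3* 90, *ORC3* 171 and *MCM9* 428. The 5 members together stood at -0.31, -0.37 and -0.38 in shEV replicates 1 to 3 relative to the mean of the 6 libraries, and at 0.37, 0.35 and 0.36 in shPAX2 replicates 1 to 3, as the median over members on the log2 scale. No library of either group departed from the others of that group.

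To set the members beside their own chromosomes, each library was centred on the median of every chromosome, a setting chosen after the data were seen. On that scale *GMNN* differed by 0.58 (adjusted p 0.000415), *PRIM2* by 0.49 (adjusted p 0.000174), *MCM3* by 0.38 (adjusted p 0.0012) and *ORC3* by 0.23 (adjusted p 0.00862). *MCM9* was then at -0.13 (adjusted p 0.29). The 4 genes were no longer the 4 largest, since *TK1* stood at 0.62 (adjusted p 0.0021), *CDC45* at 0.59 (adjusted p 0.000111) and *RRM2* at 0.54 (adjusted p 0.00196). Among the helicase subunits, *MCM6* (0.47), *MCM2* (0.41) and *MCM5* (0.38) were then at or above *MCM3*. Centring moved genes of other chromosomes too, by differing amounts. *RFC1*, on chromosome 4, went from -0.13 to 0.15 and *POLA1*, on chromosome X, from 0.14 to 0.38. *PCNA*, on chromosome 20, went only from 0.43 to 0.49. Chromosome 6 was therefore not the only chromosome whose median differed between the groups. In all, 34 members were higher and 0 lower, beside 22.2% higher and 17.2% lower among all genes. On the TPM scale, the 46 members on other chromosomes included 18 higher and 2 lower genes, with a median of 0.12. Of all tested genes on other chromosomes, 9.82% were higher and 32.1% lower, with a median of -0.11.

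Ratios within a library do not change when all its values are scaled by 1 factor. Subunits of the same complex were therefore set against each other. Quantile normalization and centring on chromosomes can change such ratios. *PRIM2* and *GMNN* lie on chromosome 6, and the genes set under them here lie elsewhere. Centred on chromosomes, *PRIM2* differed by 0.49 and *PRIM1* by 0.35, against 0.84 and 0.22 on the TPM scale. *GMNN* was then at 0.58, *CDT1* at 0.20 and *CDC6* at 0.19. The pairs were chosen after the values were seen, and the ratios are descriptions. *PRIM2* over *PRIM1* was 0.673, 0.718 and 0.698 in shEV and 1.08, 1.06 and 1.08 in shPAX2, so the large primase subunit passed the small one in TPM. *GMNN* over *CDT1* was 1.77, 1.34 and 1.48 in shEV and 2.67, 2.62 and 2.75 in shPAX2. *GMNN* over *CDC6*, the other loading factor, was 0.479, 0.517 and 0.497 in shEV and 1.04, 0.855 and 0.849 in shPAX2. *GMNN* RNA per length was therefore above that of *CDT1* in every library and below that of *CDC6* in all but shPAX2 replicate 1. *RRM2* over *RRM1* went from 0.752 ± 0.0157 to 0.913 ± 0.0493 (SD, n = 3 each). *TIPIN* over *CLSPN* was the pair whose groups overlapped, at 1.61 ± 0.121 and 1.68 ± 0.0630 (SD, n = 3 each).

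As a share of the summed TPM of MCM2-7, *MCM3* went from 13.9% ± 0.356 in shEV to 19.0% ± 0.568 in shPAX2 (SD, n = 3 each). *MCM7* went from 36.7% ± 0.877 to 33.2% ± 0.495 and *MCM4* from 11.4% ± 0.400 to 9.70% ± 0.164, while the groups overlapped for the shares of *MCM2*, *MCM5* and *MCM6*. The shares of a complex add up to a fixed total, so a larger share of *MCM3* lowers those of the others together. In TPM, the means of *MCM7* (388 and 423) and *MCM4* (120 and 124) were not lower in shPAX2. The sum itself was 1056 ± 56.7 TPM in shEV against 1275 ± 32.5 in shPAX2. Within ORC the share of *ORC3* was 12.5% ± 0.205 in shEV and 16.5% ± 1.42 in shPAX2. Within GINS, *GINS2* held 52.1% ± 0.958 and 58.6% ± 0.890, and *GINS4* 13.7% ± 0.680 and 10.6% ± 0.476, in the same order. The RNA of subunits of 1 complex was therefore not present in equal amounts in either group. *MCM3* and *ORC3* lie on chromosome 6, which was higher as a whole, while the other subunits of MCM2-7 and ORC lie elsewhere. Centred on chromosomes, *MCM3* (0.38) was at or below *MCM2* (0.41), *MCM5* (0.38) and *MCM6* (0.47) but above *MCM4* (0.20) and *MCM7* (0.27). *ORC3* (0.23) was then below *ORC2* (0.26) and *ORC6* (0.37) and above *ORC1*, *ORC4* and *ORC5*.

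**Figure D3:**
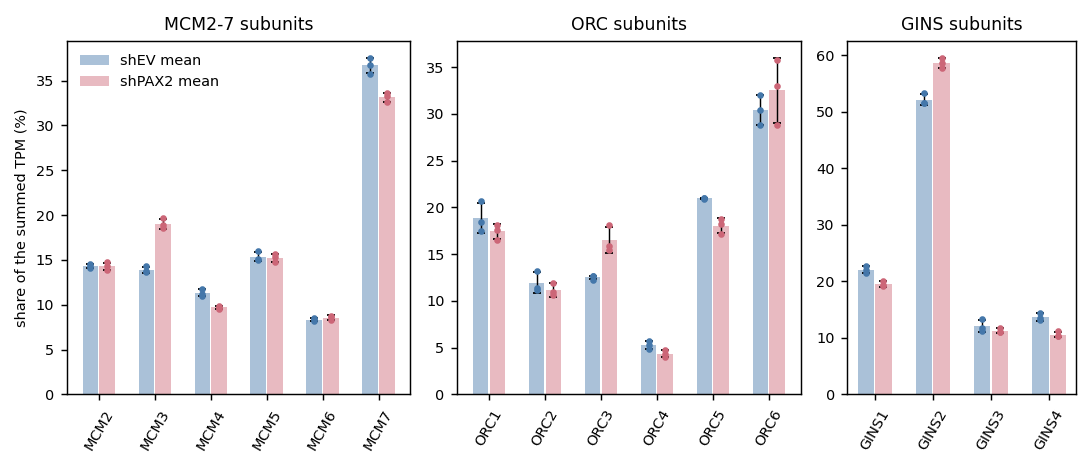
Share of the summed TPM of a complex (vertical axis, percent, from 0) held by each subunit of MCM2-7, ORC and GINS, with bars for the group means, points for the 3 libraries of a group and error bars for the SD. *MCM3*, *ORC3* and *GINS2* have larger shares in shPAX2, and *MCM7*, *ORC5* and *GINS4* smaller ones, with no overlap of the points. Shares of a complex add up to a fixed total, so a smaller share need not mean a lower TPM. *MCM3* and *ORC3* lie on chromosome 6, which was higher as a whole in shPAX2.

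Levels per length also differed widely between genes. Over the 6 libraries the mean ran from 11.2 TPM (*MCM9*) and 13.1 TPM (*ORC4*) to 233 TPM (*POLD2*), 282 TPM (*PCNA*) and 405 TPM (*MCM7*). *MCM7* was the highest and *MCM6* the lowest of the helicase subunits, a ratio of group means of 4.40 in shEV and 3.87 in shPAX2. In the RPA trimer, the lagging-strand genes and the nucleotide genes the order of the levels was the same in all 6 libraries, whereas the polymerase and primase genes showed 6 different orders. The members had 220 to 21707 reads per library.

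Differences between replicates were examined within each group. The median SD of log2(TPM + 0.5) over the members was 0.0879 in shEV and 0.0630 in shPAX2, beside 0.0903 and 0.0944 over all tested genes. Counting error alone, from the recovered reads, gave median SDs of 0.0429 and 0.0315, and the observed spread exceeded it in 43 members in shEV and 38 in shPAX2. The highest and lowest library of a group differed by over 1.2-fold in 7 members in shEV and 5 in shPAX2. The widest were *TK1* in shEV (1.34-fold) and *ORC6* in shPAX2 (1.42-fold), and the narrowest was *MCM3* in shPAX2 (1.01-fold). The same gene could be steady in one group and variable in the other.

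Replicate 1 of shEV was the highest of its group in 31 of the 51 genes and the lowest in 4, whereas it was the highest for 37.9% of all tested genes. It was also the shallowest library. Replicates 2 and 3 of shEV were the lowest in 24 and 23 of the 51 members, and in 40.3% and 27.9% of all tested genes. Within shPAX2, replicate 1 was the lowest in 29 of the 51 members, against 42.8% of all genes. Replicate 3 was the highest in 24 of the 51, against 32.9% of all genes. *CDC6*, *ORC6*, *RRM2*, *TK1*, *MCM10* and *CLSPN* all had their lowest shPAX2 value in replicate 1. A set of 11 genes did the opposite and was highest there, namely *MCM3*, *MCM9*, *CDC7*, *DBF4*, *PCNA*, *RFC1*, *RFC4*, *RFC5*, *PRIM2*, *LIG1* and *TYMS*. *RFC4* illustrated it with 96.2, 88.4 and 76.4 TPM in shPAX2 replicates 1 to 3, beside 77.1, 99.95 and 109 TPM for *ORC6*. The part of depth or library in these differences was not tested.

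**Figure D4:**
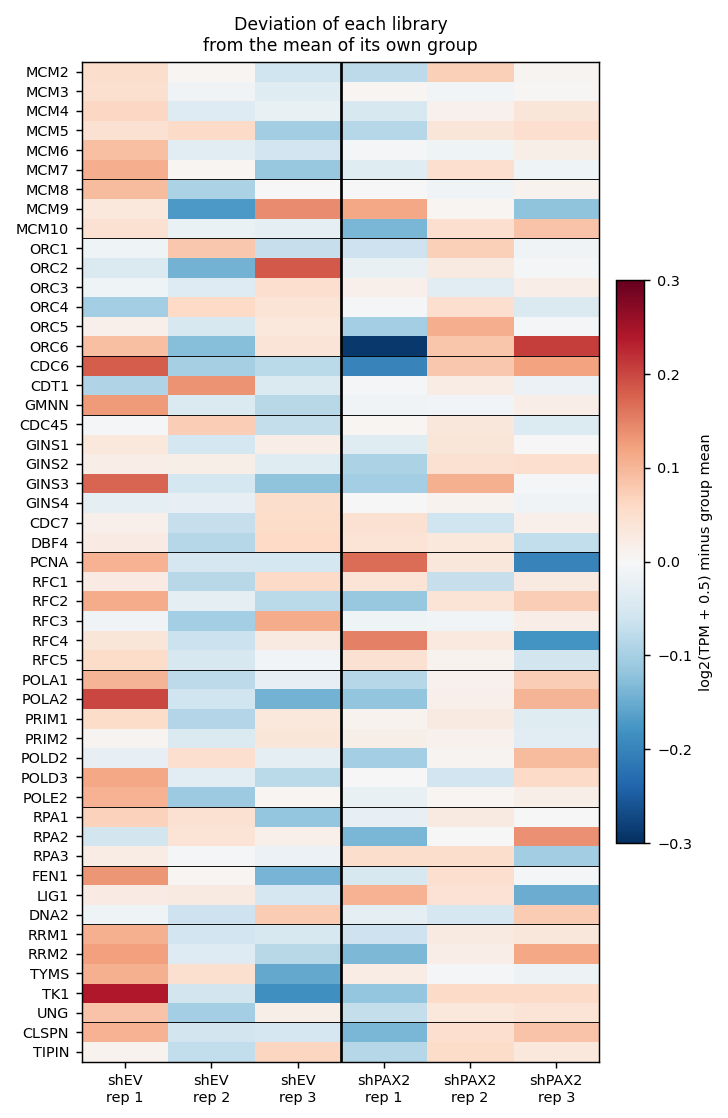
Deviation of each library from the mean of its own group (colour, log2(TPM + 0.5), from -0.3 to 0.3) for the 51 genes ordered by complex, with the 3 shEV libraries on the left and the 3 shPAX2 libraries on the right. Replicate 1 of shEV is mostly red, and replicate 1 of shPAX2 mostly blue, with *ORC6* and *CDC6* the deepest and *PCNA* and *RFC4* in red.

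By complex, the nucleotide and fork protection genes stood high in shEV replicate 1, with median deviations of 0.11 and 0.06, and low in shPAX2 replicate 1, with -0.07 and -0.11. The loader and geminin genes (0.13), the polymerase and primase genes (0.10) and MCM2-7 (0.06) also stood high in shEV replicate 1. These 3 were at -0.01, -0.02 and -0.04 in shPAX2 replicate 1. The ORC genes stood at -0.01 in shEV replicate 1. In the clamp and clamp loader genes, shPAX2 replicate 1 was the highest of the 3, at 0.04.

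The E2F letters were present in 11 of the 20 higher genes that had a window and in 11 of the 24 uncalled genes that had one. Among the genes that carried them were *MCM2*, *MCM3*, *MCM6*, *CDC7* and *TYMS* in the first set and *MCM7*, *CDC6*, *CDT1* and *LIG1* in the second. *CDC45*, *RRM2* and *TK1*, which were higher, had a window without these letters.

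Other genes of the same processes were set beside the members, from lists chosen by role, with 12.2% of all genes higher and 30.5% lower as the background. Of 21 further fork and origin-firing genes, 3 were higher and 2 lower, with a median log2 fold change of -0.01. They included *TOPBP1* (-0.06, adjusted p 0.463), *TICRR* (-0.01, adjusted p 0.943) and *TIMELESS* (0.07, adjusted p 0.391), the last of which encodes the partner of TIPIN. Of 16 chromatin assembly and other nucleotide genes, 2 were higher and 3 lower, among them the dUTPase gene *DUT* (0.28, adjusted p 0.00755) and the ribonucleotide reductase gene *RRM2B* (-0.38, adjusted p 0.00363). Of 10 replication checkpoint genes 1 was higher, the phosphatase gene *CDC25A* (0.33, adjusted p 0.0137), and 0 lower, with a median of 0.12. Of 24 mitosis genes, 3 were higher and 2 lower, with a median of 0.01. On the TPM scale, the shares of higher genes in these 4 lists were 14.3%, 12.5%, 10% and 12.5%, near that of all genes. The shares of lower genes were 9.52%, 18.8%, 0% and 8.33%. Every shPAX2 library was above every shEV library in 3, 5, 5 and 4 genes of the lists, in that order, and below in 3, 3, 0 and 4. Among all genes, 15.9% and 39% separated in those directions, so the checkpoint list was near the background by calls but not by separation. The counts under median-of-ratios scaling were larger on the higher side and are given below.

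The E2F and pocket protein genes themselves went both ways, with 4 of 16 higher and 7 lower, or 25% and 43.8%. The activator genes *E2F2* (0.62, adjusted p 0.000126) and *E2F3* (0.52, adjusted p 0.000942) were higher, but *E2F3* lies on chromosome 6 and centring on chromosomes left it at 0.17 (adjusted p 0.0923), against 0.70 (adjusted p 0.000122) for *E2F2*. *MYBL2* was higher by 0.31 (adjusted p 0.00263). *TFDP1*, which encodes the main dimer partner of the E2F proteins, was lower at -0.81 (adjusted p 0.00017), and *E2F7*, a repressor gene, at -0.41 (adjusted p 0.0025). *E2F1* stood at 0.12 (adjusted p 0.152). Of the pocket protein genes, *RB1* was lower at -0.64 (adjusted p 0.000161) and *RBL1* at -0.18 (adjusted p 0.0308), while *RBL2* did not pass (-0.03, adjusted p 0.78). Median-of-ratios scaling left *RB1* at -0.53 (adjusted p 0.000447) and *RBL1* at -0.07 (adjusted p 0.347). The remaining lower genes of the list were *TFDP2*, *LIN54* and *E2F5*, and the remaining higher gene was *E2F6*. Centring on chromosomes left *LIN54*, on chromosome 4, at -0.12 (adjusted p 0.209) and *E2F5* at -0.04 (adjusted p 0.627). *TFDP2* was still lower there, at -0.32 (adjusted p 0.0083). Under median-of-ratios scaling, where 21.2% of all genes were higher and 19.9% lower, the counts were 6 higher and 5 lower for this list, 7 higher and 1 lower for the mitosis genes, 6 higher and 0 lower for the checkpoint genes, 5 higher and 2 lower for the chromatin and nucleotide genes, and 6 higher and 0 lower for the fork and origin-firing genes.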

How the data were processed

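RNA-seq was measured in 3 shEV and 3 shPAX2 libraries of AN3CA cells, grouped by the labels. The authors deposited TPM values per gene symbol. Per the labels the libraries were made from total RNA with a stranded kit, and the submitters' processing notes name bcl2fastq, STAR, Subread, featureCounts, edgeR and hg19 (GRCh37), with no role or version. The step that made the TPM values is not given in the sources used here.

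Within each gene the ratios of TPM between libraries were ratios of whole numbers (largest relative deviation 7.15e-14), so whole reads were recovered for 100% of genes, and these gave the depth. Reads carry no molecular identifiers, so counting SDs cover counting error only. A gene was tested if its TPM reached 0.5 in 3 or more libraries (13163 of 17471 genes). Values were transformed to log2(TPM + 0.5) and fitted with limma 3.58.1 (R 4.3.3), using lmFit and a moderated two-sided test (eBayes, trend and robust options on) without covariates, and p-values were adjusted by Benjamini-Hochberg across every tested gene. A gene was called at an adjusted p under 0.05, and the fold threshold was a log2 fold change of 1 or more in either direction. Fold changes on this scale understate those of low genes. The fit was tested on simulated data.

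The members and lists were chosen with earlier results of these data known, so no p was adjusted over a list and no list was tested as a set. Per-library values were given for *PAX2*, the member with the lowest adjusted p in each complex, every called member that differed by 0.5 or more on the log2 scale, *PCNA*, *MCM2*, *CDC6*, *CDT1* and *GMNN*, and the 5 members with the largest SD within a group. *RFC4* was added after its values were seen. Positions came from GENCODE release 44 (GRCh37) for 94.8% of listed genes. Alternatives were other pseudocounts, filters and scalings, other moderation, voom on the recovered reads, a replicate block and leaving out each library.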

Additional observations from a re-analysis of the deposited data

How the results depend on the processing

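The counts of called members depended on the scaling and on single libraries. Median-of-ratios scaling gave 35 higher and 0 lower members, 1 past the fold threshold and a median log2 fold change of 0.2604. Quantile normalization gave 0 lower members, where 2489 of all 13163 tested genes were lower. Centring on chromosomes, chosen after seeing the data, gave 34 higher and 0 lower members and a median of 0.2673. The fits without one library gave 15 to 23 called members, 14 to 21 higher and 1 to 3 lower. Of the 12922 to 13019 genes tested in those fits, 975 to 1803 were higher and 2867 to 3855 lower. The lowest counts, 15 called and 14 higher, came without shPAX2 replicate 2. Why these counts moved, the cause, was not tested. The replicate numbers did not pair the libraries (correlations of deviations -0.0523, 0.0815 and 0.00140), and with a replicate block 20 members were called, 18 of them higher. With that block, 1489 of all 13163 tested genes were higher and 3623 lower. Over the 51 members and 16 alternatives, 700 results kept their direction and side of the threshold, 44 lost the call, 34 gained it and 38 changed sign, the last in 13 members that were not called on the TPM scale. With median-of-ratios scaling *MCM8* was at 0.0935, *ORC4* 0.0091, *ORC5* 0.0799, *GINS1* 0.0681, *POLD2* 0.0972, *RPA2* 0.0905 and *DNA2* 0.1044. With quantile normalization *MCM8* was at 0.0034, *ORC4* 0.0847, *GINS1* 0.0024 and *DNA2* 0.0473, and with voom *MCM8* was at 0.0124, *POLD2* 0.0085 and *DNA2* 0.0144. Centring put *MCM8* at 0.0421, *MCM9* at -0.1341, *ORC4* at 0.072, *ORC5* at 0.1147, *GINS1* at 0.0171, *RFC1* at 0.1519, *POLD2* at 0.1312, *POLE2* at 0.0157, *RPA2* at 0.0629 and *DNA2* at 0.1916, where only *DNA2* was called (adjusted p 0.0311). Without one library, *MCM8* ran from -0.06 to 0.0346, *ORC5* from -0.081 to 0.0252, *CDC6* from -0.0003 to 0.1603, *GINS3* from -0.0278 to 0.1197, *POLD2* from -0.0568 to 0.0418, *RPA2* from -0.0851 to 0.0527, *LIG1* from -0.0297 to 0.0968 and *DNA2* from -0.0396 to 0.0363. *PAX2* stayed lower and called in every setting that tested it, though a TPM filter of 5 left it untested. The spread between libraries was no larger than counting error in 8 members in shEV and 13 in shPAX2, whose libraries were the deeper. An SD over 3 libraries is itself imprecise, and the part of depth in these counts was not tested.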
